A study of Mus musculus with 6 samples.

Results

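The genes described here encode the enzymes of the tricarboxylic acid (TCA) cycle and the proteins that bring pyruvate, malate, aspartate and glutamate into it. They were chosen by name, with earlier results of these data known. The list held 35 names, of which 2 (Brp44l and Brp44) are older names of the pyruvate carrier genes Mpc1 and Mpc2, so 33 distinct genes were sought. A probe set, the group of array probes that reads 1 transcript, carried the name of 1 of these genes alone for 29 of them, out of 12393 genes with such a probe set. Pdhx, Pdp1, Pdpr and Mpc2 were not analysed here. The 29 measured genes all passed the filter on dim genes, as did 7436 genes in all.

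The TCA cycle burns acetyl-CoA to carbon dioxide in the mitochondrial matrix and hands the electrons to the respiratory chain. Pyruvate from glycolysis enters the matrix through the mitochondrial pyruvate carrier and becomes acetyl-CoA through the pyruvate dehydrogenase complex, which its kinases switch off and its phosphatases switch on. In fat the cycle feeds both heat production and, through citrate that leaves the matrix, the synthesis of fatty acids.

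RNA came from white adipose tissue of mice aged 8 weeks, of mixed C57BL6 and 129 background, kept at 4 °C for 4 days, so that controls and mutants alike had been in the cold. The 3 control samples carried YY1flox/flox alleles, and the 3 YY1aKO samples carried the same alleles with Adiponectin Cre, which deletes Yy1, a zinc-finger transcription factor, in adipocytes. Other cell types of the tissue keep the gene, and effects of the Cre transgene and of losing Yy1 cannot be told apart. The labels call the tissue visceral, with EWAT in the sample titles, but also subcutaneous, and the series title places the deletion in brown fat. They do not say whether each sample came from a separate animal, so each p-value reflects only how far these samples differ from each other, and that spread may be technical.

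Each sample was hybridised to 1 array, so 3 arrays a group set the precision. The targeted gene Yy1 gave 1596 to 1846 on the control arrays and 315 to 373 with Cre. The white adipocyte marker Adipoq read 18586 or more on every array. Control 2 stood apart, with correlations across genes of 0.812 to 0.890 with the other arrays, against 0.977 between controls 1 and 3. The summed level of the 6 measured epididymis markers (of 14 listed) was 79159 in control 2, 181 in control 1, 849.7 in control 3 and 202 to 212 in YY1aKO. Most results are therefore given with all 6 arrays and again without control 2, as 2 controls against 3 YY1aKO arrays.

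The difference of greatest size among these genes was in Suclg2, the GTP-specific subunit of succinyl-CoA synthetase, which was 4.59-fold lower in YY1aKO than in controls and passed the filter on dim genes through its control level. With all 6 arrays 2 of the 29 genes passed the test, Suclg2 and the pyruvate dehydrogenase kinase gene Pdk3, both lower in YY1aKO. That is 6.90% of the list, while 20.7% of all genes tested passed (12.9% higher and 7.8% lower). The test was limma on log2 intensities, with a Benjamini-Hochberg adjusted p under 0.05 over all genes tested. Without control 2, 12 of the 29 passed, or 41.4%, against a background of 45.1% (25.5% higher and 19.6% lower). Pdha1, Pdk1, Mpc1, Got1, Got2 and Me2 were then higher, and Idh2, Dlst, Suclg1, Suclg2, Pdk3 and Glud1 lower. Neither share lay above that of all genes tested. With all arrays 7 of the 29 had an unadjusted p under 0.05 (24.1%, against 37.3% of all genes tested). Without control 2, 14 did (48.3%, against 54.5%).

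**Figure D1:**
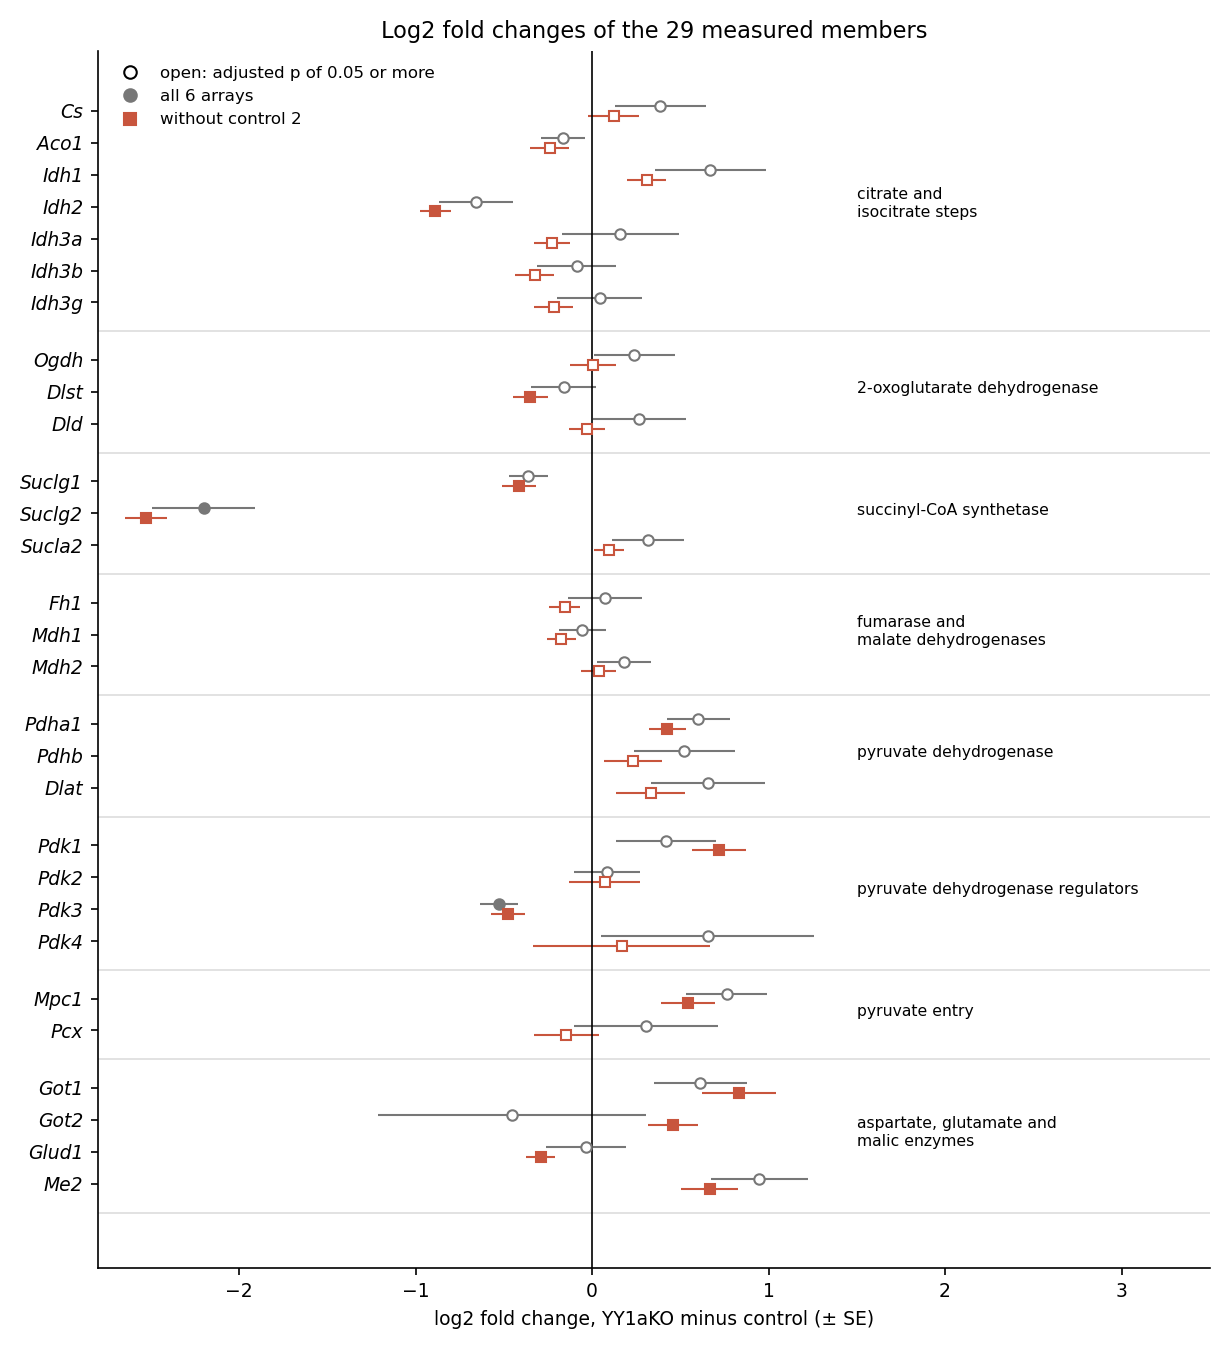
Log2 fold change (YY1aKO minus control, with its SE) of each of the 29 measured genes, by role, with all 6 arrays (circles) and without control 2 (squares). Filled symbols had an adjusted p under 0.05. Suclg2 lies far to the left of the others in both comparisons, at -2.20 and -2.53.

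The groups did not overlap for 9 of the 29 genes with all arrays (31.0%, against 47.5% of all genes tested). Of these, 5 were higher and 4 lower in YY1aKO, where 27.9% and 19.6% of all genes tested were. Without control 2 there were 19 (65.5%, against 69.2%), 7 higher and 12 lower, against 37.8% and 31.4% of all genes tested. The median log2 fold change of the 29 was 0.18 with all arrays and 0.005 without control 2. Over all genes tested the medians were 0.06 and 0.03. The counts moved with the array left out, for these genes and for all genes tested. Without control 1, 1 of the 29 was higher and 2 were lower, where 10.8% and 7.17% of all genes tested were. Without control 3, 0 were higher and 1 was lower, where 2.96% and 2.34% were. Without YY1aKO 1, 2 or 3, 0 passed in either direction, where 2.03%, 0.215% and 0.108% of all genes tested were higher and 1.37%, 0.229% and 0.215% lower. With control 2 left out together with 1 further array, 2 to 6 of the 29 were higher and 3 to 6 lower, where 16.2% to 21.1% and 14.1% to 15.7% of all genes tested were.

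Control 2 read below both other controls for 24 of the 29 genes and above both for 4. It was the lowest of all 6 arrays for 69.0% of the list, against 37.9% of all genes tested. Its log2 distance from the mean of controls 1 and 3 ran from -1.46 for Pdk4 to 2.74 for Got2, with a median of -0.69. Over all genes tested the median distance was -0.05. In the same array the summed level of 8 measured white adipocyte markers (of 10 listed) was 89584, while controls 1 and 3 gave 141940 and 134197, beside the epididymis markers given above. Their part in these readings was not tested. Because the sample is a whole tissue, fewer cells of a type and less RNA per cell cannot be told apart.

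**Figure D2:**
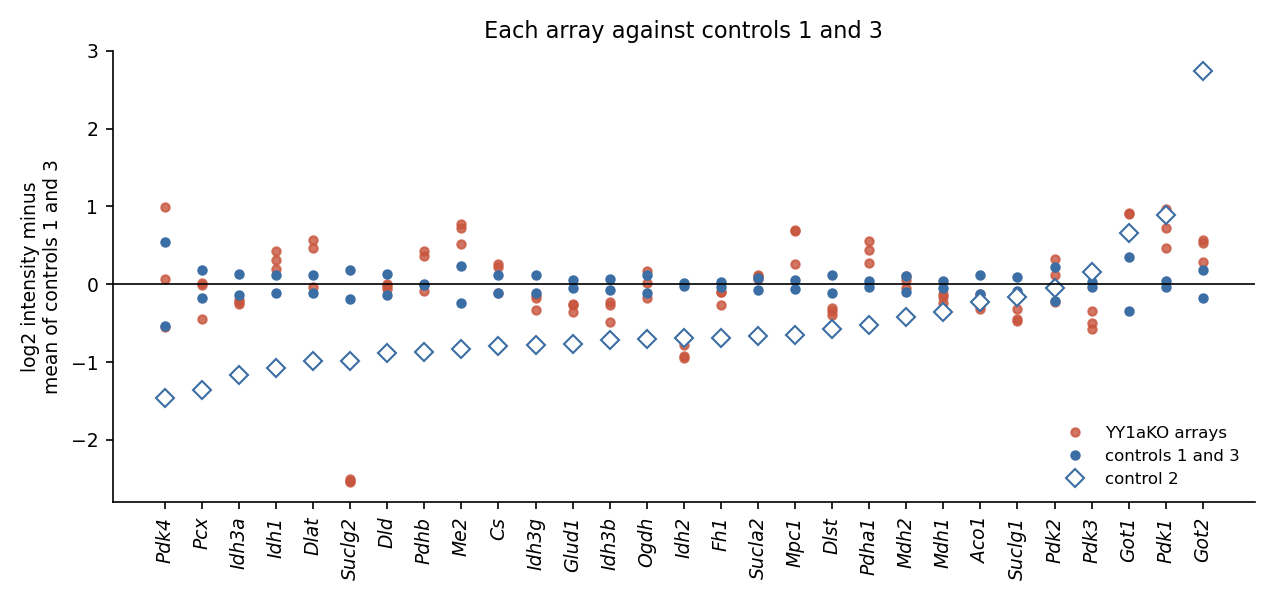
Log2 intensity of each array minus the mean of controls 1 and 3, for the 29 genes ordered by control 2 (open diamonds). Filled points are controls 1 and 3 and the 3 YY1aKO arrays. Control 2 runs from -1.46 at Pdk4 to 2.74 at Got2, while Suclg2 is the gene whose YY1aKO arrays lie farthest below 0.

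Succinyl-CoA synthetase is the step of the cycle that makes GTP or ATP directly, and its beta subunit decides which. Suclg2 encodes the GTP-forming beta subunit. Control arrays 1 to 3 gave 517, 231 and 401, and YY1aKO arrays 1 to 3 gave 80.0, 78.4 and 78.7. The lowest control lay well above all 3 YY1aKO arrays, which were almost equal. Its log2 fold change was -2.20 ± 0.29 (SE, n = 3 per group), a 4.59-fold fall (adjusted p = 0.0102). Without control 2 it was -2.53 ± 0.12, or 5.76-fold lower (adjusted p = 0.00041). The mean log2 level in YY1aKO, 6.30, lay below the filter level of 6.83, and Suclg2 passed the filter only through the controls, the one gene of the 29 with a group mean under it. No detection call was used, so how well the YY1aKO level, and with it the size of the fold, was measured is not known. In the fit with no filter the adjusted p was 0.014 with all arrays and 0.00097 without control 2. With all other arrays kept, leaving out YY1aKO 1, 2 or 3 gave adjusted p values from 0.052 to 0.062. Without control 2, the call held whichever further array was left out, with adjusted p values from 0.0011 to 0.0036.

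The ATP-forming beta subunit, Sucla2, did not pass. It gave 4459.6, 2671 and 4008 on control arrays and 4436, 4545 and 4579 on YY1aKO arrays, and apart from control 2 the groups lay at one level. Its log2 fold change was 0.32 ± 0.20 with all arrays and 0.10 ± 0.08 without control 2 (adjusted p = 0.30 and 0.38). Suclg1, the alpha subunit that both enzymes share, gave 3234, 2712 and 2858 on control arrays and 2183, 2221 and 2443 on YY1aKO arrays. Every YY1aKO array lay below every control. The log2 fold change of -0.36 ± 0.11 missed the threshold with all arrays (adjusted p = 0.066), and Suclg1 fell by 0.42 ± 0.10 without control 2 (adjusted p = 0.018). That call ended when control 1, YY1aKO 1 or YY1aKO 2 was left out as well (adjusted p from 0.053 to 0.078).

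Ratios within an array take out shifts that both genes share, so 11 pairs of related genes were compared in this way. A ratio's change can be read, but not its level, since probe sets differ in brightness. The log2 ratio of Suclg2 to Sucla2 was -3.11, -3.53 and -3.32 in controls and -5.79, -5.86 and -5.86 in YY1aKO. Control 2 lay closer to the other controls than to the YY1aKO arrays, and the ratio changed by -2.52, or 5.72-fold. The exact two-sided permutation p was 0.1, the smallest that 3 against 3 arrays can give, and 0.275 after adjustment over the 11 pairs. The groups also did not overlap for Suclg2 to Suclg1 (change -1.84), Idh1 to Idh2 (1.33) and Mdh1 to Mdh2 (-0.23), each with the same p of 0.1 and 0.275. The groups of Suclg2 itself lay farther apart than the whole spread of Sucla2 or of Suclg1, so neither of its ratios could overlap. Their lack of overlap is therefore not a separate result. The YY1aKO level of Suclg2 lay below the filter level, so how well the size of these 2 changes was measured is not known. For the other 7 pairs the groups overlapped with all arrays.

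**Figure D3:**
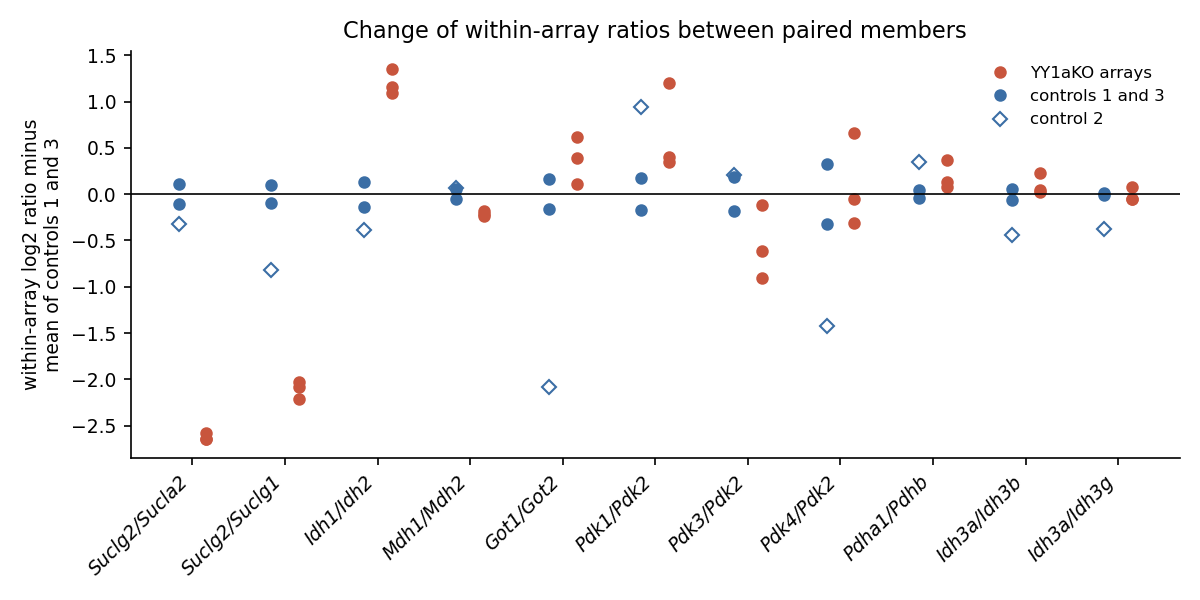
Within-array log2 ratio of 11 gene pairs, minus the mean of controls 1 and 3, on each array (open diamond: control 2). The ratio of Suclg2 to Sucla2 shows the widest gap between the groups, with a change of -2.52, and Idh1 to Idh2 moves the other way by 1.33.

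The promoters of Suclg2 and Pdk3, the 2 genes called in both comparisons, are shown because YY1 is a DNA-binding factor. Each line gives the 100 bases before the start site in RefSeq's GRCm38.p6 table, 5′ to 3′ on the gene's strand. They lie at chr6:95718847-95718946 (minus strand) and chrX:93832151-93832250 (minus strand), and 71.0% and 73.0% of their bases are G or C.
Suclg2: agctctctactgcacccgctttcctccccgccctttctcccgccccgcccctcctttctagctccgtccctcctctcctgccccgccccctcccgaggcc
Pdk3: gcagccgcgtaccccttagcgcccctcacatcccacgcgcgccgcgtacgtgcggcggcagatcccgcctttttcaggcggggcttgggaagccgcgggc
Neither stretch holds CCAT or its complement ATGG, the letters at the heart of the YY1 motif, which 34.5% of such stretches of the genes tested hold. The longer motif GCCATNTT was searched on both strands in windows from 250 bases before to 50 after each start site. It was found for 3 of the 27 measured genes with a window (11.1%), against 11.0% of all genes tested that have one. The matches follow in capitals, each with 8 bases on either side, and all 3 read as the reverse complement AANATGGC on the gene's strand.
Idh3b: ctcggccgAACATGGCagcgctga
Ogdh: aagatcagAAAATGGCggcgttaa
Idh3g: ccctccccAAGATGGCggaacagt
They lie at chr2:130284405-130284428 (minus strand), chr11:6292572-6292595 (plus strand) and chrX:73787012-73787035 (minus strand). None of Idh3b, Ogdh and Idh3g passed the test in either comparison. A match is a description of letters and says nothing of binding, and no match says only that the letters are not in the window.

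In the first steps of the cycle Cs, the citrate synthase gene, gave 4638, 2467 and 3959.6 on control arrays and 3961, 5123 and 4998 on YY1aKO arrays. The groups overlapped, and its log2 fold change was 0.39 ± 0.26 with all arrays and 0.12 ± 0.14 without control 2 (adjusted p = 0.32 and 0.51). Aco1 encodes the cytosolic aconitase that doubles as an iron sensor. It gave -0.16 ± 0.13 and -0.24 ± 0.11, neither past the threshold.

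Isocitrate dehydrogenase exists as an NAD enzyme of the cycle proper and as NADP enzymes that make reducing power. Idh2 encodes the mitochondrial NADP form. Idh2 gave 1516, 954 and 1562 on control arrays and 893, 809 and 795 on YY1aKO arrays. The groups did not overlap, but control 2 lay nearer to the YY1aKO arrays than to its own group. On the log2 scale the difference was -0.66 ± 0.21 with all arrays, which missed the threshold (adjusted p = 0.076). Without control 2 Idh2 fell by 0.89 ± 0.09, or 1.85-fold (adjusted p = 0.0016). This call held whichever further array was left out, with adjusted p values from 0.0060 to 0.0099.

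The cytosolic NADP form, Idh1, gave 7201, 3147 and 6150.2 on control arrays and 8268, 8909 and 7637 on YY1aKO arrays. Each YY1aKO array lay above each control. The log2 difference was 0.67 ± 0.31 with all arrays and 0.31 ± 0.11 without control 2, and neither passed (adjusted p = 0.18 and 0.063). The log2 ratio of Idh1 to Idh2 gave 2.25, 1.72 and 1.98 on control arrays and 3.21, 3.46 and 3.26 on YY1aKO arrays. Each YY1aKO array lay above each control, by 2.51-fold on average (2.30-fold without control 2). Since YY1aKO arrays lay above every control for Idh1 and below every control for Idh2, the ratio could not overlap. Its lack of overlap is therefore not a separate result.

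The 3 genes of the NAD enzyme, Idh3a (catalytic), Idh3b and Idh3g (regulatory), gave log2 fold changes of 0.16, -0.09 and 0.04 with all arrays. Without control 2 they gave -0.23, -0.32 and -0.22, and none passed (adjusted p = 0.11, 0.055 and 0.15). Idh3b came closest, at 3832 and 3470.1 in controls 1 and 3 and 2604 to 3126 in YY1aKO. For Idh3a the probe sets disagree. The brightest is used here, and 2 others gave 0.49 and 0.64 without control 2, both past the threshold among all probe sets (adjusted p = 0.034 and 0.021).

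The 2-oxoglutarate dehydrogenase complex turns 2-oxoglutarate into succinyl-CoA. Its core gene Dlst gave 1716, 1066 and 1460.1 on control arrays and 1203, 1250.2 and 1275 on YY1aKO arrays. Control 2 was the lowest array and the other controls were the highest, so the groups overlapped. The log2 fold change was -0.16 ± 0.18 with all arrays (adjusted p = 0.57), and Dlst fell by 0.35 ± 0.10 without control 2 (adjusted p = 0.030). Averaging its probe sets gave -0.10 there (adjusted p = 0.33), and its other probe set alone gave 0.16. The call also ended when control 1 or any YY1aKO array was left out too (adjusted p from 0.065 to 0.12). Ogdh, the first enzyme of the complex, gave 0.24 ± 0.23 and 0.005 ± 0.13. Dld, the dehydrogenase that 3 such complexes share, gave 0.27 ± 0.26 and -0.03 ± 0.10, and neither gene passed.

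From fumarate to oxaloacetate no gene passed in either comparison. Fh1, fumarase, gave 3959, 2404 and 3797 on control arrays and 3229.6, 3615 and 3615 on YY1aKO arrays. Mdh2, the malate dehydrogenase of the cycle, gave 8919, 6200.1 and 7761 on control arrays and 8036, 8991 and 8639 on YY1aKO arrays. Its cytosolic counterpart Mdh1 gave 8551, 6441 and 8009.8 on control arrays and 7028, 7587 and 7389 on YY1aKO arrays. In both genes control 2 was the lowest array and the groups overlapped. Mdh2 differed by 0.18 ± 0.15 and 0.04 ± 0.10 on the log2 scale, and Mdh1 by -0.05 ± 0.13 and -0.17 ± 0.08. The ratio of Mdh1 to Mdh2 was nonetheless lower on each YY1aKO array (-0.25 to -0.19) than on each control (-0.06 to 0.06), a change of 1.18-fold.

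Mpc1 encodes a subunit of the mitochondrial pyruvate carrier. It gave 7279.8, 4447 and 6715 on control arrays and 8360.0, 11313 and 11209 on YY1aKO arrays. All YY1aKO arrays lay above all controls, and YY1aKO 1 was the lowest of its group. The log2 fold change of 0.76 ± 0.23 missed the threshold with all arrays (adjusted p = 0.066), and Mpc1 rose by 0.54 ± 0.15, or 1.46-fold, without control 2 (adjusted p = 0.031). That call ended when control 1, control 3, YY1aKO 2 or YY1aKO 3 was left out as well (adjusted p from 0.072 to 0.12).

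Pcx, pyruvate carboxylase, turns pyruvate into oxaloacetate and so refills the cycle. It gave 6330.1, 2185 and 4925 on control arrays and 4108, 5533 and 5667 on YY1aKO arrays, with overlap of the groups, and gave 0.31 ± 0.41 and -0.14 ± 0.18 (adjusted p = 0.63 and 0.54). The array also carries 4 quality-control probe sets for Pcx, placed along its transcript. Without control 2 they gave log2 differences of -0.25 to -0.07, and in control 2 they lay 0.87 to 1.41 log2 units below the other controls, much as the main probe set did. Their log2 ratio of 3′ to 5′ signal, a sign of RNA integrity, was 4.06, 4.12 and 4.20 in controls and 4.23, 4.32 and 4.21 in YY1aKO. Control 2 lay within the range of the other controls, and the YY1aKO arrays lay slightly above all 3. The part of this difference in the results was not tested.

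The pyruvate dehydrogenase complex joins pyruvate to the cycle. Pdha1, the alpha subunit of its first enzyme, gave 5199, 3511 and 4917 on control arrays and 6124, 7462 and 6866 on YY1aKO arrays. The groups did not overlap. Its log2 fold change was 0.60 ± 0.18 with all arrays (adjusted p = 0.064), and Pdha1 rose by 0.43 ± 0.11, or 1.34-fold, without control 2 (adjusted p = 0.022). A dimmer Pdha1 probe set gave 0.27 without control 2 and did not pass (adjusted p = 0.11 among all probe sets). The call ended when control 1, control 3, YY1aKO 2 or YY1aKO 3 was left out too (adjusted p from 0.054 to 0.090).

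Its partner Pdhb gave 4961, 2717 and 4987 on control arrays and 4666, 6701 and 6388 on YY1aKO arrays, so YY1aKO 1 lay among the controls. Dlat, the acetyltransferase core, showed the same order, with 1054 in YY1aKO 1 against 1490.1 and 1597 in the other mutants and 1171, 546 and 996 in controls. Without control 2 the log2 fold changes were 0.23 ± 0.17 and 0.33 ± 0.19, and neither passed. With YY1aKO 1 left out as well they were 0.40 and 0.51, and both passed (adjusted p = 0.028 and 0.031). That fit drops the mutant array that lay among the controls and keeps 2 arrays a group. In it 21.1% of all genes tested were higher and 15.7% lower. Neither gene passed with any other further array left out, where the changes were as low as 0.13 and 0.21.

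Pyruvate dehydrogenase kinases switch the complex off. Of the 4 genes 1 was lower and 1 higher without control 2, where 19.6% and 25.5% of all genes tested were. Pdk3 gave 312, 341 and 299 on control arrays and 216, 239.9 and 204 on YY1aKO arrays. Control 2 was in step with its group here, and no array overlapped. Pdk3 fell by 0.53 ± 0.11, or 1.44-fold, with all arrays (adjusted p = 0.024) and by 0.47 ± 0.10 without control 2 (adjusted p = 0.011). With control 2 kept, the adjusted p was 0.066 to 0.11 when control 3 or any YY1aKO array was left out. Without control 2 it stayed under the threshold whichever further array was left out (0.018 to 0.048).

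Pdk1, a kinase gene known to respond to hypoxia, gave 497, 899 and 471 on control arrays and 668, 947 and 800.5 on YY1aKO arrays. Control 2 lay among the YY1aKO arrays, and the other controls lay below them. On the log2 scale the difference was 0.42 ± 0.28 with all arrays (adjusted p = 0.33), and Pdk1 rose by 0.72 ± 0.15, or 1.65-fold, without control 2 (adjusted p = 0.013). Without control 3 as well the adjusted p was 0.058. A further Pdk1 probe set gave 0.63 without control 2 (adjusted p = 0.029 among all probe sets).

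Pdk4, the kinase that fasting induces, had the widest spread of the 29 genes within the YY1aKO group, with 941, 235 and 446 in controls and 676, 444 and 1284 in YY1aKO. Its log2 fold change was 0.66 ± 0.60 with all arrays and 0.17 ± 0.50 without control 2. Pdk2 gave 178, 149 and 132 on control arrays and 167, 131 and 192 on YY1aKO arrays, and differed by 0.09 ± 0.18 and 0.07 ± 0.20. Neither passed.

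The aspartate aminotransferases Got1 (cytosol) and Got2 (mitochondria) work in the malate-aspartate shuttle. Got1 gave 102, 205 and 165 on control arrays and 245, 208 and 243 on YY1aKO arrays, and the highest control lay just under the lowest mutant. The log2 difference was 0.61 ± 0.26 with all arrays (adjusted p = 0.15), and Got1 rose by 0.83 ± 0.21, or 1.78-fold, without control 2 (adjusted p = 0.022). That call ended without YY1aKO 1 or YY1aKO 3 as well (adjusted p = 0.066 and 0.064).

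Got2 had the widest distance of control 2 from the other controls among the 29 genes. It read 589.5 and 758 in controls 1 and 3 but 4457 in control 2, and 963, 987 and 816 in YY1aKO. Its second probe set gave 164 and 192 on the arrays of controls 1 and 3 and 1219 on that of control 2. Without control 2 its log2 fold change was 0.52 (adjusted p = 0.016 among all probe sets, where the brightest gave 0.066). The brightest probe set, used here, gave a log2 fold change of -0.45 ± 0.76 with all arrays (adjusted p = 0.70). Without control 2 its sign turned and Got2 rose by 0.46 ± 0.14 (adjusted p = 0.044, but 0.070 in the fit with no filter). The call ended when control 1, YY1aKO 1 or YY1aKO 2 was left out as well (adjusted p from 0.11 to 0.19).

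Me2, the NAD-dependent mitochondrial malic enzyme, makes pyruvate from malate inside the matrix. It gave 236, 112 and 169.8 on control arrays and 287, 342 and 329 on YY1aKO arrays, without overlap. Its log2 fold change was 0.95 ± 0.27 with all arrays (adjusted p = 0.060), and Me2 rose by 0.67 ± 0.16, or 1.59-fold, without control 2 (adjusted p = 0.020). With all arrays it passed when its 2 probe sets were averaged, at 1.10 (adjusted p = 0.037), and its second probe set alone gave 1.24 (adjusted p = 0.030 among all probe sets). The call without control 2 ended when control 3, YY1aKO 2 or YY1aKO 3 was left out as well (adjusted p from 0.059 to 0.065).

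Glud1, glutamate dehydrogenase, feeds the cycle with 2-oxoglutarate. It gave 3384, 1915 and 3136 on control arrays and 2709, 2737 and 2553 on YY1aKO arrays, so the mutants lay between control 2 and the other controls. On the log2 scale the difference was -0.03 ± 0.23 with all arrays (adjusted p = 0.93), and Glud1 fell by 0.29 ± 0.08 without control 2 (adjusted p = 0.032). This call ended with any 1 YY1aKO array left out as well (adjusted p from 0.069 to 0.089) and in the fit with no filter (0.054). Without control 1 or control 3 as well, the changes were -0.23 and -0.34. A dimmer Glud1 probe set gave -0.43 without control 2 (adjusted p = 0.017 among all probe sets, where the one used here gave 0.057).

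**Figure D4:**
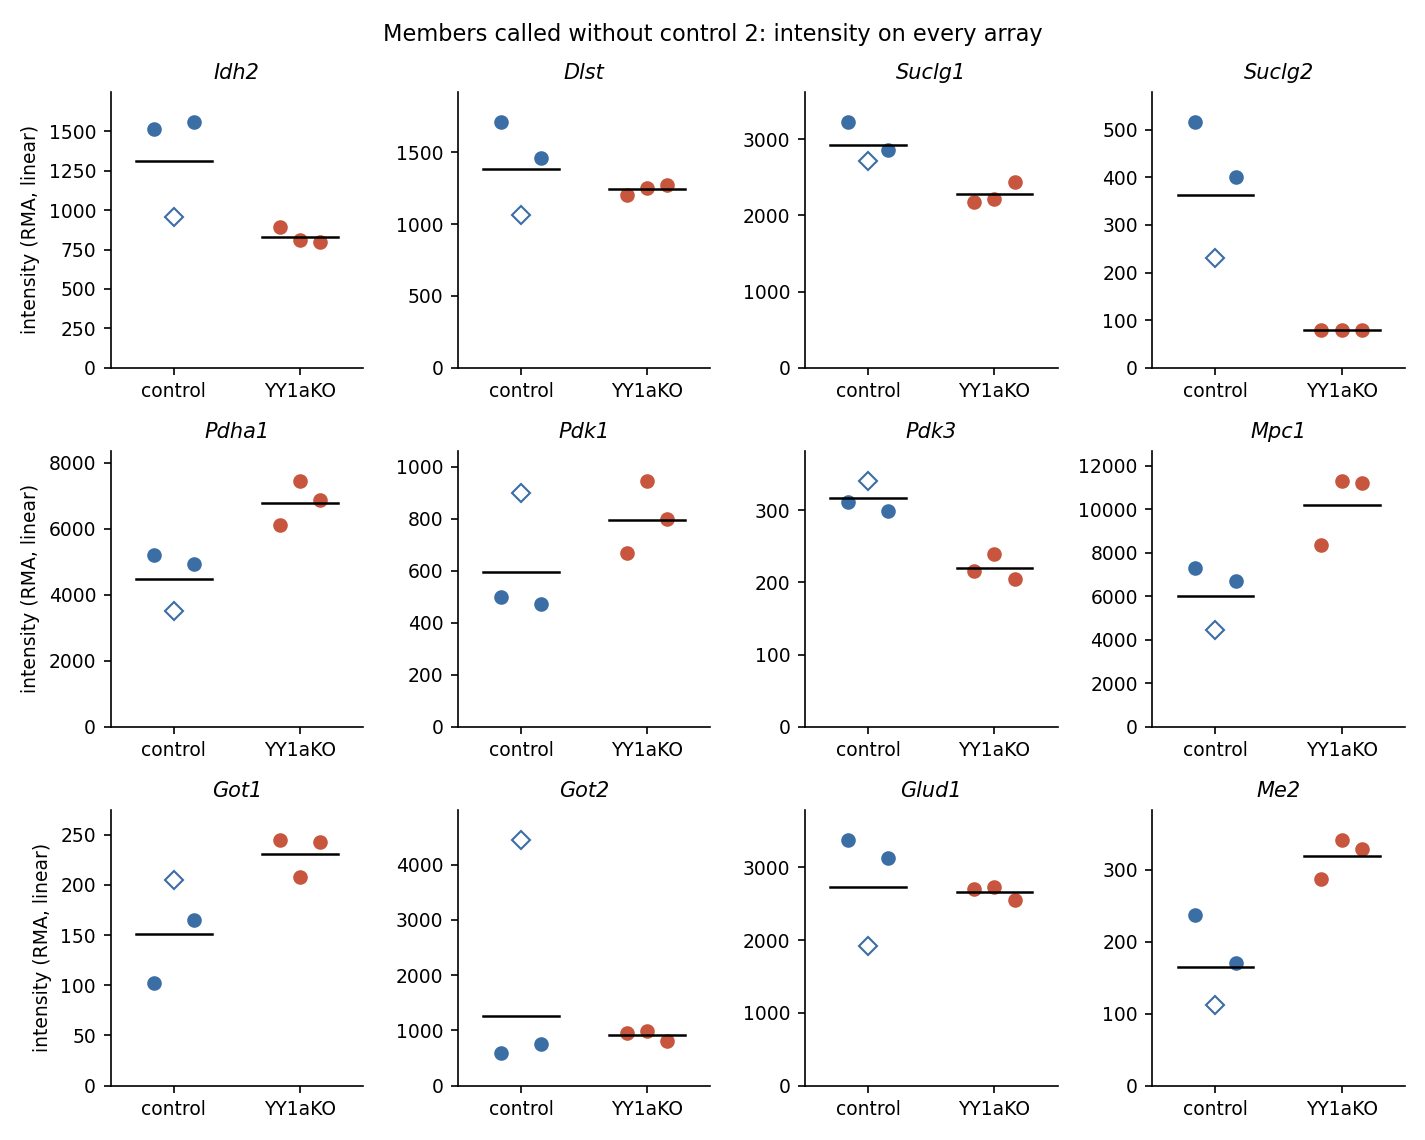
Intensity on every array (RMA values on a linear scale) of the 12 genes that passed without control 2. Open diamonds are control 2, and black lines are geometric means of all 3 arrays of a group. Suclg2 shows the widest gap, and in Dlst, Pdk1, Got2 and Glud1 control 2 lies on the far side of or among the YY1aKO arrays.

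Related genes that the list leaves out were taken from a list of 39, of which 32 were measured and 30 passed the filter. With all arrays 3 were higher and 4 lower (23.3%, against 20.7% of all genes tested). Without control 2, 10 were higher and 10 lower (66.7%, against 45.1%). Their median log2 fold changes were 0.15 and 0.09. This related list was chosen with earlier results of these data known, so its shares beside the background are a description and not a test.

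Complex II follows succinyl-CoA synthetase in the cycle and passes electrons to the respiratory chain. Of its 4 subunit genes, Sdha, Sdhb and Sdhd fell without control 2, by 0.52 ± 0.08, 0.54 ± 0.10 and 0.53 ± 0.09 (adjusted p = 0.0054, 0.0097 and 0.0066). Sdhc gave 0.10 ± 0.09 and did not pass. Of all genes tested 45.1% passed without control 2, 25.5% as higher and 19.6% as lower. With all arrays none of the 4 passed, at -0.40, -0.32, -0.40 and 0.31, where 20.7% of all genes tested did.

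A further group of related genes holds cytosolic enzymes and mitochondrial carriers, not all of which move cycle carbon to the cytosol. Acly, which splits exported citrate into acetyl-CoA, gave 2225, 7153 and 3021 on control arrays and 8098, 16217 and 14177 on YY1aKO arrays. It rose by 2.25 ± 0.31 without control 2 (adjusted p = 0.0036) and missed the threshold with all arrays (1.76 ± 0.49, adjusted p = 0.054). Me1, the cytosolic malic enzyme that makes NADPH, rose by 0.80 ± 0.21, and Acss2, which activates acetate in the cytosol, by 1.15 ± 0.38 without control 2 (adjusted p = 0.026 and 0.0498). The dicarboxylate carrier Slc25a10 rose in both comparisons, by 0.99 ± 0.24 and 0.84 ± 0.23 (adjusted p = 0.039 and 0.027). The carriers Slc25a11 (0.29 ± 0.09) and Slc25a22 (0.65 ± 0.18) and the lactate dehydrogenase gene Ldha (0.39 ± 0.10) rose without control 2.

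Phosphoenolpyruvate carboxykinase draws oxaloacetate out of the cycle, and its 2 genes went opposite ways. The mitochondrial form Pck2 rose in both comparisons, by 1.10 ± 0.24 and 1.06 ± 0.26 (adjusted p = 0.029 and 0.021). The cytosolic form Pck1 gave 6281, 1508 and 4381 on control arrays and 2488, 1641 and 1546 on YY1aKO arrays. It fell by 1.51 ± 0.25 without control 2 (adjusted p = 0.0063) and gave -0.91 ± 0.54 with all arrays (adjusted p = 0.28).

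Enzymes of alanine, glutamine and branched-chain amino acids exchange carbon and nitrogen with the cycle. Glul, glutamine synthetase, fell in both comparisons, with -0.90 ± 0.10 and -0.85 ± 0.08 (adjusted p = 0.0076 and 0.0015). Gpt2, the mitochondrial alanine aminotransferase, also fell in both, with -1.35 ± 0.29 and -1.66 ± 0.14 (adjusted p = 0.028 and 0.0012). Gpt, its cytosolic counterpart, fell by 0.74 ± 0.13 without control 2. In branched-chain ketoacid dehydrogenase, which shares Dld with the complexes above, Dbt fell in both comparisons (-1.13 ± 0.30 and -1.45 ± 0.15) and Bckdha without control 2 (-1.22 ± 0.16). Its other subunit gene Bckdhb rose without control 2 (0.67 ± 0.14), and its kinase gene Bckdk rose in both (0.71 ± 0.14 and 0.63 ± 0.13).

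Nnt, which makes mitochondrial NADPH as Idh2 does, fell by 0.76 ± 0.15 and 0.84 ± 0.14 (adjusted p = 0.021 and 0.0061). Some C57BL6 stocks carry a deletion in Nnt, and the genotype of these mice at Nnt was not tested. Acss1 and Slc25a13 lay below the filter. In the fit with no filter both passed as lower without control 2 (-1.08 ± 0.12 and -0.69 ± 0.18, adjusted p = 0.0039 and 0.042, where 26.1% of all genes passed, 14.7% higher and 11.5% lower). With all arrays neither passed, where 10.8% of all genes did, 6.85% higher and 3.99% lower.

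Markers of cell types that differ in mitochondrial content were set beside these results. The summed level of the 8 white adipocyte markers was 113578 to 118081 in YY1aKO, between control 2 and the other controls. The 7 brown or beige markers summed to 563 to 1490.1 for controls and 1476 to 2852 for YY1aKO. Of these 4 passed in both comparisons, Cidea, Cox7a1 and Ucp1 as higher and Ppargc1a as lower (Ucp1 and Ppargc1a in the fit with no filter). Of all genes tested 20.7% and 45.1% passed (10.8% and 26.1% with no filter). With all arrays 0 of the 8 white adipocyte, 0 of the 6 endothelial and 1 of the 8 skeletal muscle markers passed. Without control 2, 2 of each of these lists did. The 6 endothelial markers summed to 1889 to 2336 in YY1aKO, 2583 and 3076 in controls 1 and 3 and 1023 in control 2. Skeletal muscle, rich in these enzymes, had 8 markers with sums of 407 to 470.2 for controls and 1377 to 2199 for YY1aKO. Acta1 alone made up most of that difference, with 110 to 178 for controls and 1107 to 1945 for YY1aKO, while Ckm read 60.3 to 72.6 on every array. Of the 8 muscle markers 5 had a log2 fold change above 0 with all arrays. The part of these marker differences in the results was not tested.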

How the data were processed

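Each array's deposited file holds an intensity for every probe set. The authors normalized with RMA according to the submitters' processing notes, where no version appears. RMA corrects background, equalises the distributions of the arrays and summarises the probes, so a shift shared by most genes is removed. The intensities lie between 6.09 and 30322, a linear scale, although RMA ends in log2 and the sources used here do not say how the values were converted. All computing was done on their log2.

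Of 22690 probe sets, 64 array controls were left out, and 20380 carried a single symbol in the platform annotation (691 several, 1555 none). Each of 12393 genes took its probe set with the highest mean, and the brightest 60% (7436, mean intensity of at least 114) were tested with limma 3.58.1 in R 4.3.3 (lmFit, eBayes), two-sided, and p-values were adjusted by Benjamini and Hochberg's method across the 7436 genes, with a threshold of 0.05. Fold changes are YY1aKO minus control, and SEs are limma's moderated SEs. Genes below the filter take the fit with no filter. Ratios of gene pairs were tested by exact permutation. Of 12 pairs planned 11 could be measured.

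The genes, lists and pairs were chosen with earlier results of these data known. Text values were fixed by rule: per-array values for genes past the threshold in either comparison, for pairs whose groups do not overlap and for the kinases, and every related gene that passed. Array values of Cs, Fh1, Pcx, Dlat and Idh3b, and Sdhc, were added after they were seen. Scripts were tested on simulated data. Promoters are RefSeq's, GRCm38.p6. Alternatives were other probe set choices, filters, normalizations, priors, array weights, a replicate block, other thresholds and each array left out. Replicate numbers showed no pairing, since arrays with the same number deviated with correlations of -0.14 to -0.12.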

Additional observations from a re-analysis of the deposited data

How the results depend on the processing

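Suclg2 was lower in YY1aKO in every alternative that tested it, and so was Pdk3. Over the alternatives run for single genes, 452 of 487 values with all arrays and 396 of 458 without control 2 kept their side of the threshold. Of these, 19 in 11 genes and 14 in 7 genes had the opposite sign with no call on either side, among them Idh3a, Dld, Pcx and Pdk2 in both comparisons. Got2 turned to a called rise of 0.46 without control 2 (-1.001 without control 1).

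Shares of all genes tested in the same setting, higher and lower, stand in brackets. Of the 29 TCA and pyruvate genes with all arrays, 1 was higher with the mean of all probe sets (12.7% and 6.75%), 4 were higher and 4 lower with array weights (20.8% and 14.6%), whose estimation did not fully converge, and 3 and 4 with an adjusted p under 0.10 (19.1% and 12.5%). Counts of 0 lower were found among the brightest 40% of genes (14.8% and 8.29%), which leave out Suclg2 and Pdk3, or with an adjusted p under 0.01 (1.72% and 1.13%). Leaving out 1 array gave 0 to 6 higher and 0 to 6 lower (0.108% to 25.5% and 0.215% to 19.6%). Without control 2, an adjusted p under 0.01 left 0 higher and 2 lower (12.3% and 9.19%), a further array left out gave 2 to 6 higher and 3 to 6 lower, and the median log2 fold change ran from -0.16 to 0.12.

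For the related genes the shares of all genes tested again stand in brackets. With all arrays 5 were higher among the brightest 40% (14.8% and 8.29%) and 5 with the same median on every array (15.1% and 6.72%). Array weights gave 6 higher and 9 lower (20.8% and 14.6%). With an adjusted p under 0.10, 8 were higher (19.1% and 12.5%), and with one under 0.01, 0 were higher and 1 lower (1.72% and 1.13%). Leaving out 1 array gave 0 to 10 higher and 0 to 10 lower (0.108% to 25.5% and 0.215% to 19.6%). Without control 2, 1 was higher with an adjusted p under 0.01, and 1 to 8 with a further array left out. The shorter motif CCATNTT was found for 5 genes.

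With the replicate number as a block, all arrays gave 0 genes higher and 0 lower in both lists (Suclg2 adjusted p = 0.057, Pdk3 0.086), and 22 higher and 32 lower over all genes tested (0.296% and 0.43%). Without control 2 the block gave 2 higher and 3 lower, and 2 higher and 9 lower of the related genes (13.2% and 10.9%). Arrays share only a number, so the block speaks of no pairing. The cause of these changes was not tested. With the mean of all probe sets, the ratio changes were -0.25 for Pdha1 to Pdhb, 0.73 for Idh3a to Idh3b and 0.62 for Idh3a to Idh3g.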
